A study of Camelina sativa with 12 samples.

Results

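The 59 genes described here were expressed in roots and shoots of control Camelina sativa plants and were down-regulated strongly in both organs by salt. They were chosen by level: a value of at least 20 CPM (counts scaled to the library size, rounded to whole numbers) in each of the 6 control libraries, and a mean with salt of at most 25% of the control mean in roots and again in shoots. Of 49932 genes listed, 6974 passed the control floor. Of these, 149 (2.14%) had 25% or less left in roots and 105 (1.51%) in shoots, and 59 met both limits, while 90 met the limit in roots only and 46 in shoots only. The fall with salt is therefore what chose these genes, and it is given as a description with no test.

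All libraries came from DH55, a double haploid line of C. sativa, so the values describe 1 genotype. The 4 groups were roots and shoots of control plants and of salt-treated plants, each with 3 biological replicates of 28-day-old plants harvested before bolting. The treated pots were watered with NaCl at 192 mM (15 dSm-1) for 21 days, beginning 7 days after sowing, and the control pots received tap water throughout. The start of the treatment is that of the labels, and the general growth methods of the study give a later start. The sources used here do not say whether the root and the shoot of a replicate came from the same plants.

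Camelina is a hexaploid relative of Arabidopsis thaliana with 3 sub-genomes, so that most A. thaliana genes have several camelina counterparts, called homeologues, which usually keep the same order along their chromosomes. Plants in saline soil take up water less easily and accumulate sodium and chloride, and they slow the growth of leaves and roots. Ethylene response factors (ERFs) are plant transcription factors that share a DNA-binding domain and act in growth and stress responses downstream of ethylene and other signals.

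ERF106 (Csa13g009640) is the only one of the 59 genes with a name in what was read here, and the other 58 are given by their gene IDs without a role. The annotated sheets of the study were read only in part: the 1352 genes read, of which 1088 were measured, hold none of the 59, and the sheet of genes down-regulated in both organs was not used here. The IDs printed for unnamed genes were chosen after their values were seen. The chromosome of a gene was read from its ID, and no member lay on an unplaced scaffold. No nucleotide or protein sequence is shown for them.

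Csa13g009640, a member of the ERF family on chromosome 13, stood at 29, 26 and 28 CPM in the control root libraries and at 2, 3 and 4 CPM in the salt-treated ones. In control shoots it stood at 22, 24 and 24 CPM, and in salt-treated shoots at 1, 2 and 2 CPM. Every salt library lay far below every control library of its organ, with 10.8% of the control mean left in roots and 7.14% in shoots. Without salt the gene had similar values in both organs, and the difference between control roots and control shoots was 0.24 on the log2 scale (SE 0.22, limma adjusted p = 0.375). In absolute terms it was among the less abundant of the 59 genes, whose median control mean was 48 CPM in roots and 35.3 CPM in shoots.

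The other ERF106 genes showed the same direction but did not reach the control floor. Csa20g010010 stood at 34, 35 and 36 CPM in control roots and at 6, 6 and 8 CPM with salt, and in shoots it went from 19, 18 and 18 CPM to 1, 2 and 2 CPM. It kept 19% in roots and 9.09% in shoots, and missed the set only because its shoot controls were below 20 CPM. Csa08g056810 was weaker, at 8, 8 and 12 CPM in control roots against 1, 2 and 2 CPM with salt, and at 14, 14 and 18 CPM in control shoots against 1, 2 and 1 CPM. All 3 ERF106 genes were called lower in roots and in shoots, where 3.88% of all genes tested were called in both, but the study picked them from these libraries, so the count is not independent evidence of a direction. A gene was called where limma, fitted over all genes on log2(CPM + 0.5), gave a log2 change beyond 1 in either direction with an adjusted p no higher than 0.05.

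**Figure D1:**
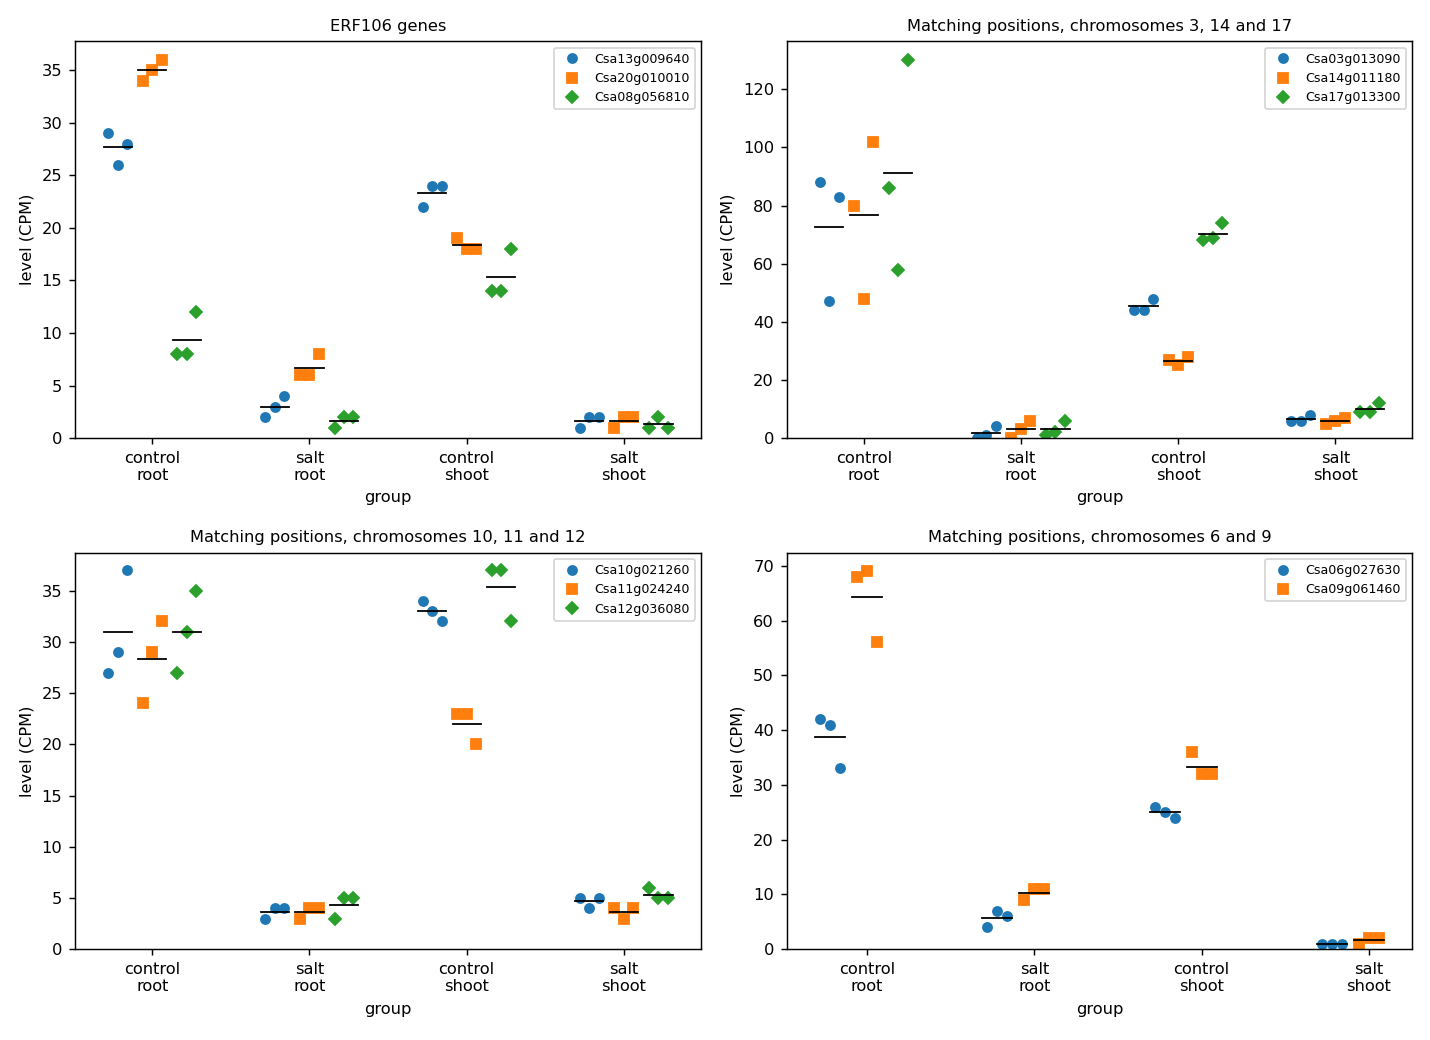
Levels of the ERF106 genes and of 3 groups of members at matching chromosome positions, with CPM on the vertical axis and the 4 groups on the horizontal axis. Points are libraries and bars are the means of 3 libraries. For Csa13g009640, control roots lie at 26 to 29 CPM and salt-treated roots at 2 to 4 CPM, and in every panel the salt libraries lie below the control libraries of the same organ.

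Across the 59 genes, the level left with salt ranged from 2.29% to 24.9% of the control mean in roots, with a median of 14.7%, and from 3.45% to 24.2% in shoots, with a median of 14.3%. These medians correspond to falls of 6.79-fold in roots and 7-fold in shoots. A fall of at least 8-fold was seen for 25 genes in roots and 22 in shoots, and one of at least 16-fold for 10 and 8. No salt library overlapped a control library of its organ for any of the 59 genes, where the highest salt root library lay below the lowest control root library for 45.9% of genes at the control floor and 23.5% of all genes tested, and this order was seen in shoots for 39.3% and 25.8%. In the fit, all 59 were called lower in both organs, against 7.85% of all genes tested and 9.95% of those at the floor in roots, and 8.87% and 8.3% in shoots. Those counts follow from the choice of the genes, and nothing is read from them. The median log2 change of the members was -2.69 in roots and -2.70 in shoots, beside -0.16 and -0.08 over all genes at the floor.

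Most of the genes kept a measurable level with salt. Salt-treated root means ran from 1.33 to 49.3 CPM with a median of 7.33 CPM, and salt-treated shoot means from 1 to 34.3 CPM with a median of 5.33 CPM. Only 3 genes were listed at 0 in any salt root library, and none in a salt shoot library. Since the values are whole numbers, a mean of a few CPM carries a large rounding step, and this touches the 37 genes that were under 10 CPM in salt-treated roots and the 42 that were so in salt-treated shoots. In bulk tissue, fewer cells of a type and less RNA per cell cannot be told apart.

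**Figure D2:**
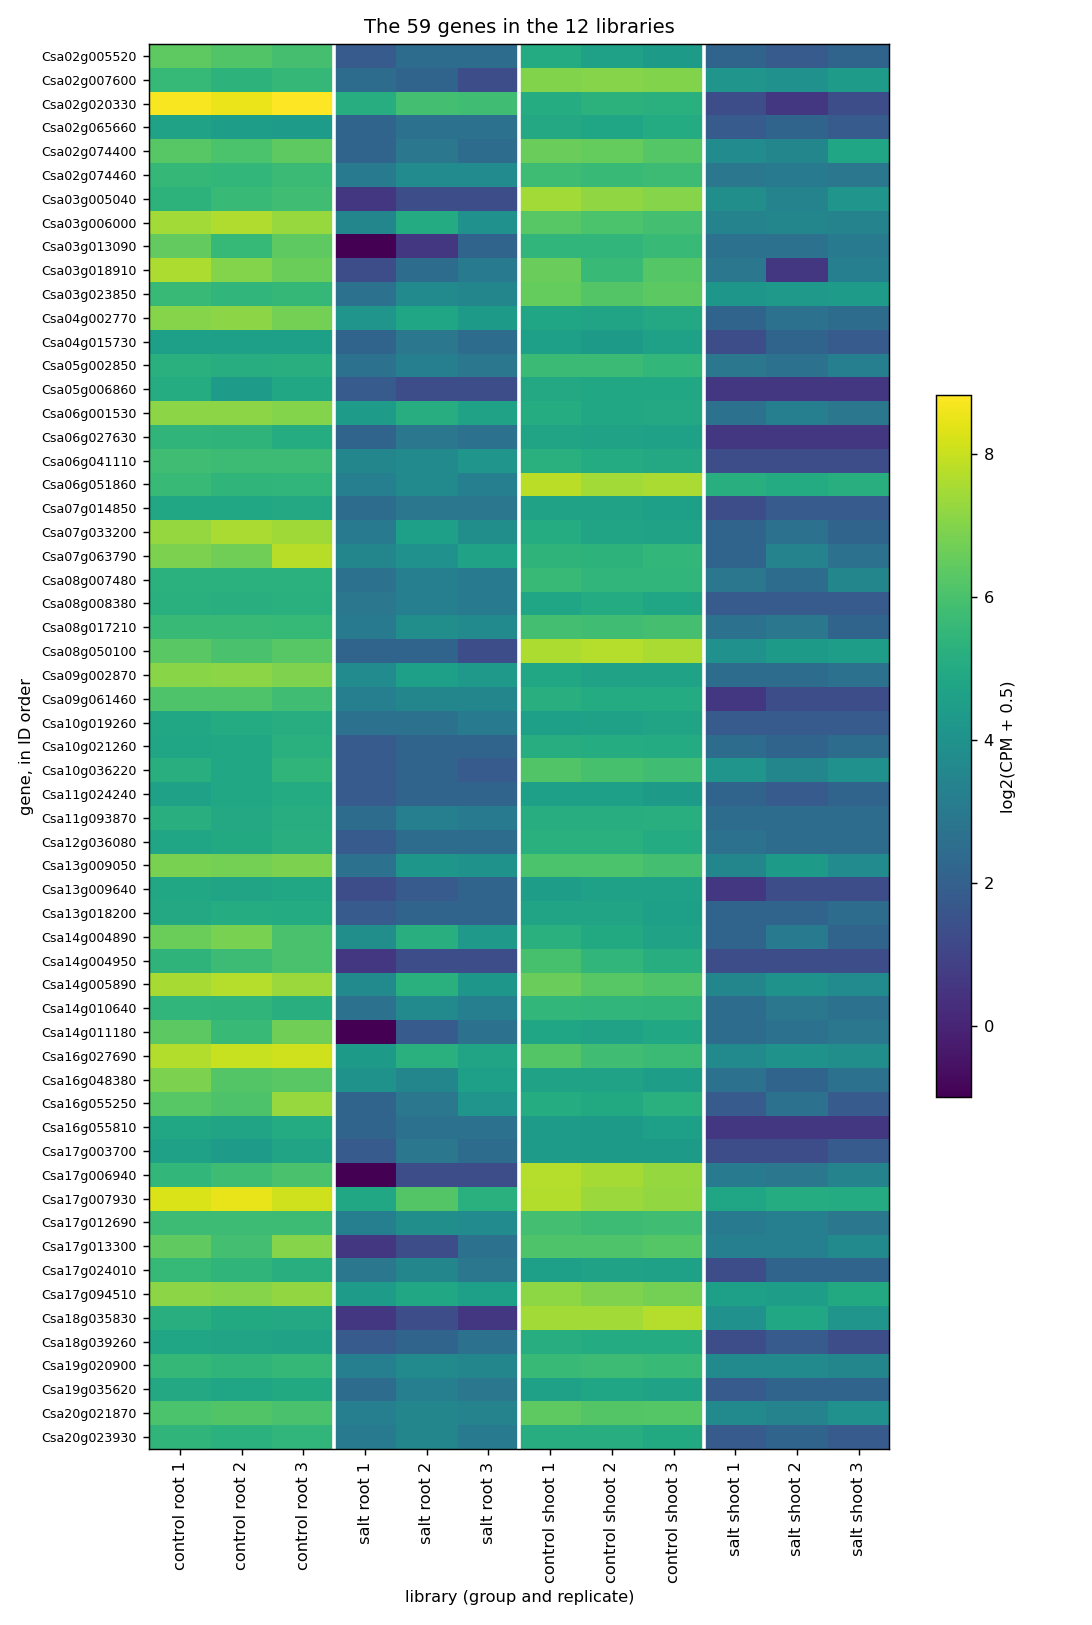
Level of each of the 59 genes in the 12 libraries as log2(CPM + 0.5), with genes in ID order as rows and libraries as columns. Both control blocks are brighter than the salt block of the same organ for every gene, and the salt root 1 column is the darkest of the salt root libraries for 49 genes, tied values not counted.

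Summed over the 59 genes, the libraries held 4613 ± 127 CPM in control roots and 615 ± 164 CPM in salt-treated roots, and 3409 ± 229 CPM in control shoots and 479 ± 40.6 CPM in salt-treated shoots (SD, n = 3 each). This was 0.502% to 0.527% of the library total in control roots and 0.0469% to 0.0858% with salt, and 0.290% to 0.331% in control shoots and 0.0393% to 0.0481% with salt. Relative to their mean, the salt-treated roots varied most. Their sums were 440, 765 and 641 CPM in replicates 1, 2 and 3, and the median coefficient of variation of a member was 27.7% in salt-treated roots against 10.6% in control roots. In shoots it was 17.3% with salt and 7.07% without.

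Salt root replicate 1 gave the lowest of the 3 values for 49 of the 59 genes, while replicate 2 gave the highest for 32. The median log2 difference of the members from the control root mean was -2.97 in replicate 1, -2.49 in replicate 2 and -2.57 in replicate 3. The same library held the most Rubisco small chain RNA, a marker of photosynthetic tissue, among the roots. The 3 Rubisco small chain genes measured summed to 12 to 29 CPM in control roots, to 196, 72 and 108 CPM in salt root replicates 1, 2 and 3, to 17954 to 19779 CPM in control shoots and to 9568 to 12079 CPM in salt-treated shoots. None of the 3 was at 0 in any library, and their part in the root values was not tested. When salt root replicate 1 was left out, 47 genes met both limits, all of them among the 59, and the median log2 change of the 59 genes in roots was -2.51. When replicate 2 was left out, 68 genes did.

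The limit of 25% cut through a continuous range. Just inside lay members with 24.9% left in roots and 17.2% in shoots, with 24.8% and 6.06%, and with 20.0% and 24.2%. Just outside lay genes with 17.7% in roots and 25.2% in shoots, with 25.6% and 14%, and with 25.7% and 18.3%.

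**Figure D3:**
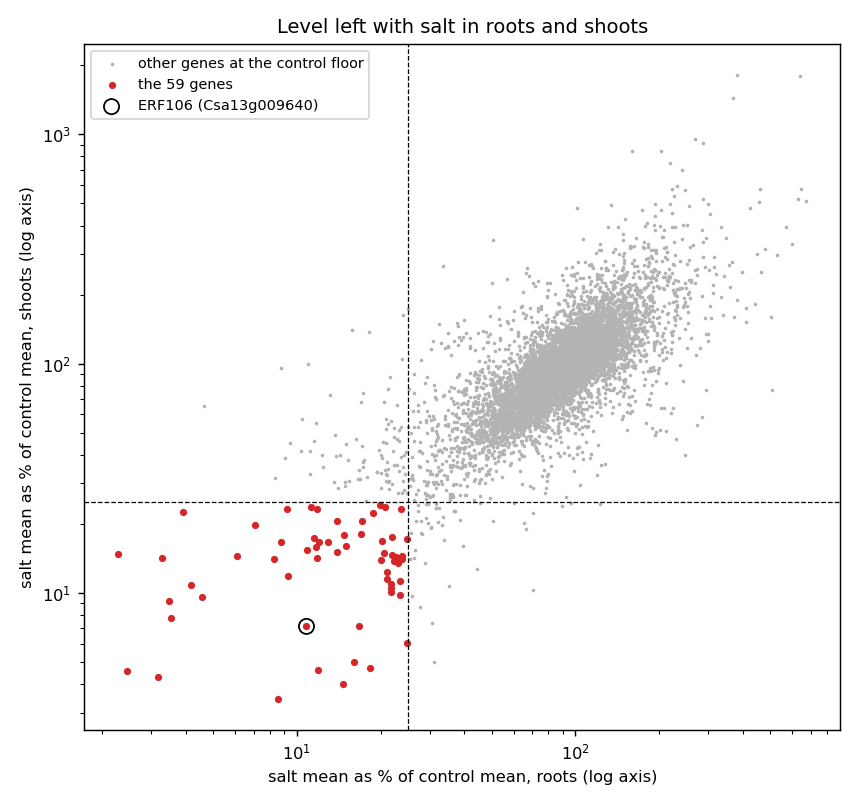
Mean with salt as a percentage of the control mean in roots (horizontal, log axis) and shoots (vertical, log axis) for the 6974 genes at the control floor, with the 59 members in red and dashed lines at 25%. The members fill the lower left corner, down to 2.29% in roots and 3.45% in shoots, and ERF106 (circled) lies at 10.8% and 7.14%.

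The fall was deeper in roots for 32 genes and deeper in shoots for 27, and the percentages left were at least 2-fold apart for 11 genes in each direction. The median difference between the log2 changes (roots minus shoots) was -0.17, also a description. Across the 59 genes, which share their libraries and are not independent, Pearson's r between the log2 percentages left in roots and shoots was 0.20, a description within a range that the limits cut on both axes.

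Csa18g035830 kept less in roots than in shoots. It stood at 35, 31 and 30 CPM in control roots and fell to 1, 2 and 1 CPM with salt, and it stood at 177, 175 and 209 CPM in control shoots and 15, 29 and 17 CPM in salt-treated shoots. This left 4.17% in roots and 10.9% in shoots, from control means of 32 and 187 CPM. The difference between its log2 changes, -0.96, was not called and is a description. Csa03g013090 was the gene with the least left in roots, at 88, 47 and 83 CPM in control roots against 0, 1 and 4 CPM with salt. In shoots the same gene stood at 44, 44 and 48 CPM without salt and at 6, 6 and 8 CPM with salt, so that 2.29% was left in roots and 14.7% in shoots. The salt root libraries of this gene lay close to the smallest step of the table.

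Other genes kept less in shoots than in roots. Csa06g041110 went from 55, 53 and 53 CPM to 11, 12 and 17 CPM in roots, close to the limit, and from 37, 32 and 30 CPM to 2, 2 and 2 CPM in shoots. Csa06g027630 went from 42, 41 and 33 CPM to 4, 7 and 6 CPM in roots and from 26, 25 and 24 CPM to 1, 1 and 1 CPM in shoots. Both genes had close values within each shoot group, and neither had overlapping groups in roots. Csa14g004950 was low with salt in both organs, at 41, 52 and 64 CPM against 1, 2 and 2 CPM in roots and at 62, 44 and 34 CPM against 2, 2 and 2 CPM in shoots, which left 3.18% and 4.29%.

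The rule compared salt with control and not roots with shoots, but it used the values of all 4 groups. It set a floor on each control library, and the control means were the base of both limits. Without and with salt, the organ difference is therefore made of values that the rule used. Its calls and adjusted p are given as a description in both conditions. In control plants, 13 of the 59 genes (22%) were called higher in roots, where 15.3% of all genes tested and 6.7% of the genes at the floor were. Another 6 (10.2%) were called higher in shoots, where 17% of all genes tested and 4.67% of the genes at the floor were, and 40 were not called. These genes are abundant in both control organs by selection, so the genes at the floor are the nearer background. Control root and control shoot libraries did not overlap for 29 genes with roots above (43.1% of the floor genes) and 15 with roots below (25.4%). With 3 libraries against 3, an exact permutation test of a single gene cannot give a p under 0.1.

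The gene with the largest organ difference was Csa02g020330, at 417, 372 and 451 CPM in control roots and 33, 39 and 37 CPM in control shoots. With salt it stood at 34, 59 and 55 CPM in roots and at 2, 1 and 2 CPM in shoots, so that salt-treated roots held about as much as control shoots. The log2 difference between roots and shoots was 3.49 without salt (SE 0.22, limma adjusted p = 6.8e-08) and 4.52 with salt (SE 0.22), both a description. Csa07g033200 was also higher in roots, at 152, 191 and 171 CPM against 33, 26 and 25 CPM in control shoots. Its salt-treated roots held 8, 23 and 14 CPM and its salt-treated shoots 4, 6 and 4 CPM, and the log2 organ difference was 2.60 without salt and 1.49 with salt.

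Among the genes called higher in shoots, Csa18g035830 had the largest difference, -2.53 on the log2 scale without salt (roots minus shoots, SE 0.24) and -3.49 with salt. Csa06g051860 stood at 49, 43 and 44 CPM in control roots and 222, 176 and 188 CPM in control shoots, and at 9, 12 and 9 CPM and 35, 32 and 36 CPM with salt. It was the highest of the members in salt-treated shoots, and the gap between the organs was similar in both conditions (-2.09 and -1.74). Csa17g006940 stood at 45, 54 and 64 CPM in control roots and 212, 180 and 155 CPM in control shoots, and salt brought these to 0, 2 and 2 CPM and 8, 7 and 10 CPM. Its organ difference without salt was -1.74 (SE 0.49, limma adjusted p = 0.00858), and with a pseudocount of 0.1 in place of 0.5 the adjusted p was 0.121.

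With salt, 17 of the 59 genes (28.8%) were called higher in roots, against 14.7% of all genes tested and 6.51% of the genes at the floor. Another 11 (18.6%) were called higher in shoots, against 18.2% and 7.05%, and the remaining 31 were not called. In the salt libraries the median was 5 to 9 CPM over the members and 37 to 39 CPM over the genes at the floor. The genes at the floor are therefore not a like background with salt. The counts were 23 higher in roots without salt root replicate 1 and 15 without salt root replicate 3 or salt shoot replicate 1. Many of the organ differences were called both without and with salt: 8 genes were called higher in roots and 6 higher in shoots in both conditions, and no gene was called in opposite directions. A further 5 were called higher in roots in control plants only, while 9 in roots and 5 in shoots were called with salt only, and 26 were called in neither. Csa06g041110, at 0.70 without salt and 2.44 with salt on the log2 scale, and Csa17g013300, at 0.30 and -1.84, were among those called with salt only. The first stood at 2, 2 and 2 CPM in salt-treated shoots and the second at 1, 2 and 6 CPM in salt-treated roots. At such levels rounding to whole numbers weighs on the fold and on the spread. The change of the organ difference, 1.75 and -2.14 for these genes, is made of the contrasts that chose them and is given as a description. Pearson's r between the log2 organ ratios of the means without and with salt was 0.74 over the 59 genes, a description across genes of the same libraries, and 40 of them lay on the same side of equality in both conditions.

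**Figure D4:**
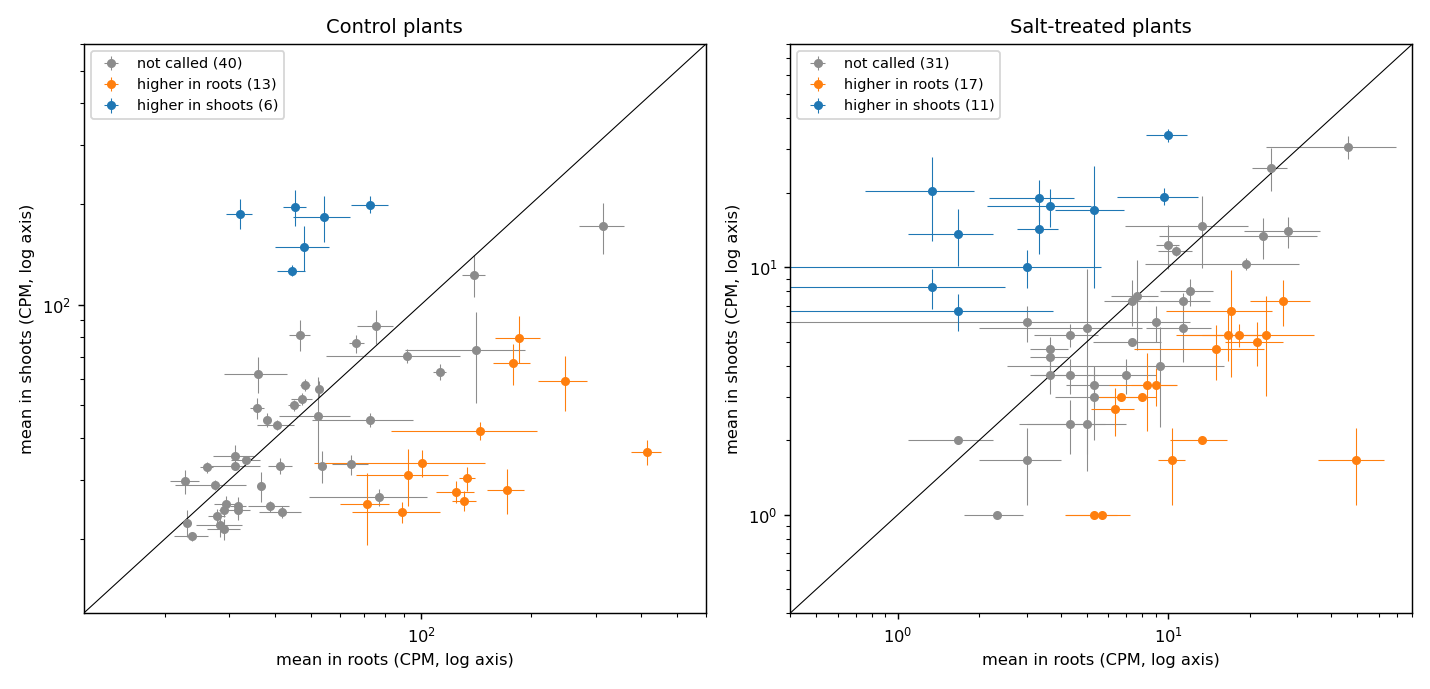
Mean level in roots (horizontal) and shoots (vertical), in CPM on log axes, of the 59 genes in control plants (left) and salt-treated plants (right), with error bars of 1 SD over 3 libraries, the line of equality and colours for the calls of the organ comparison. In control plants 13 genes were called higher in roots and 6 in shoots, and with salt 17 and 11. Bars that would reach below 0 run off the axis.

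Members at matching chromosome positions were then compared, since homeologues tend to keep their order. Positions were matched through annotated genes that share an A. thaliana orthologue, and a pair counted when it lay within 30 gene steps of the expected place on the other chromosome. Such a match names candidate homeologues and does not show a shared sequence. Of 1621 pairs of members on different chromosomes, 13 (0.802%) lay at matching positions, where 22671 of 22626242 pairs of genes at the control floor did (0.10%). They joined 23 genes into 10 groups, while 36 genes had no such partner in the set. A gene without usable annotated genes on both sides could not be placed, and the 36 may include genes of this kind. All 13 pairs lay across different sub-genomes, as did 452 of the 453 anchor pairs used for matching. That result therefore follows from the matching. If reads from near-identical copies were shared or split between homeologues during counting, the values of such genes would be linked, and this was not tested.

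A group of 3 lay on chromosomes 3, 14 and 17. Csa03g013090 is described above. Csa14g011180 stood at 80, 48 and 102 CPM in control roots against 0, 3 and 6 CPM with salt, and at 27, 25 and 28 CPM in control shoots against 5, 6 and 7 CPM. Csa17g013300 stood at 86, 58 and 130 CPM against 1, 2 and 6 CPM in roots, and at 68, 69 and 74 CPM against 9, 9 and 12 CPM in shoots. All 3 genes had their lowest control root value in replicate 2 and their lowest salt root value in replicate 1, and all 3 kept between 2.29% and 3.91% in roots and between 14.2% and 22.5% in shoots. With salt, Csa03g013090 was called higher in shoots than in roots (log2 difference -2.24, limma adjusted p = 0.00546). The adjusted p was 0.0628 when only the groups compared entered the fit, and both values are a description.

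A second group of 3 lay on chromosomes 10, 11 and 12, at lower and closer levels. Csa10g021260 stood at 27, 29 and 37 CPM in control roots against 3, 4 and 4 CPM with salt, and at 34, 33 and 32 CPM in control shoots against 5, 4 and 5 CPM. Csa11g024240 stood at 24, 29 and 32 CPM against 3, 4 and 4 CPM in roots, and at 23, 23 and 20 CPM against 4, 3 and 4 CPM in shoots. Csa12g036080 stood at 27, 31 and 35 CPM against 3, 5 and 5 CPM in roots, and at 37, 37 and 32 CPM against 6, 5 and 5 CPM in shoots. The share left was between 11.8% and 16.7% in every one of these comparisons, and none of the 3 genes was called between roots and shoots in either condition. Csa06g027630, given above, was matched with Csa09g061460 on chromosome 9, which stood at 68, 69 and 56 CPM against 9, 11 and 11 CPM in roots and at 36, 32 and 32 CPM against 1, 2 and 2 CPM in shoots. Both genes of this pair were called higher in roots with salt (2.01 and 2.36 on the log2 scale), where their shoot libraries held 1 or 2 CPM. Without salt they were also higher in roots, at 0.61 and 0.93 (limma adjusted p = 0.00688 and 0.000824). Neither was called there, because the log2 change was not beyond 1.

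Not all matched genes behaved alike. Csa03g005040 on chromosome 3, at 40, 48 and 56 CPM in control roots, 1, 2 and 2 CPM in salt-treated roots, 174, 144 and 129 CPM in control shoots and 14, 10 and 17 CPM in salt-treated shoots, was matched with both Csa14g004890 and Csa14g004950 on chromosome 14. The first of these kept 24.9% in roots and the second 3.18%, beside 3.47% for Csa03g005040. The first lay 14.2 gene steps from the expected place and the second 8.2, and which of them is a homeologue was not tested. Over the 13 matched pairs, the median absolute log2 difference in the percentage left was 0.13 in roots and 0.24 in shoots, and over all 1621 pairs of members on different chromosomes it was 0.80 and 0.61. Csa07g063790 and Csa16g055250, another matched pair, were both called higher in roots without salt (log2 differences of 1.70 and 1.46). The second was not called without control root replicate 3 (1.09, limma adjusted p = 0.0733), and the first was called with salt at 1.30 but not without salt root replicate 3 (0.98).

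Some genes had nearly equal values without being joined by position. Csa04g002770 stood at 131, 136 and 108 CPM in control roots and 27, 26 and 30 CPM in control shoots, and with salt at 17, 27 and 20 CPM and 4, 6 and 5 CPM. Csa06g001530 stood at 136, 139 and 126 CPM and 33, 28 and 30 CPM without salt, and at 21, 34 and 25 CPM and 6, 9 and 7 CPM with salt. Csa09g002870 stood at 135, 139 and 120 CPM and 28, 25 and 25 CPM without salt, and at 13, 23 and 19 CPM and 5, 5 and 6 CPM with salt. All 3 were called higher in roots without salt (log2 differences of 2.15, 2.12 and 2.31) and with salt (1.98, 1.78 and 1.66), and in each of them salt root replicate 1 was the lowest and replicate 2 the highest of the salt roots. They lie on 3 different chromosomes, and whether they are homeologues was not tested. The lack of a join does not show that their positions differ, since a gene without usable annotated genes on both sides could not be placed.

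The 59 genes were spread over all sub-genomes. Sub-genome I held 18 of them (30.5%, Wilson 95% interval 20.3% to 43.1%), sub-genome II 21 (35.6%, 24.6% to 48.3%) and sub-genome III 20 (33.9%, 23.1% to 46.6%). Among the genes at the control floor the shares were 31.4%, 32.1% and 36.5%, each inside the interval of the members. The intervals treat the 59 genes as independent, which the candidate homeologues among them may not be, so they are a description. Chromosome 17 held the most members, 7 of its 428 genes at the floor, followed by chromosome 2 with 6 of 320, and chromosomes 1 and 15 held none.

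Only some of the growth and hormone genes that the study names were listed here. Those that were measured were, other than ERF106 (Csa13g009640), outside the set by their level or by the size of their fall. Of 9 genes that the study names as lower in both organs, all were called lower in roots and in shoots, where 3.88% of all genes tested were called in both, but these were picked from the same libraries. Only ERF106 (Csa13g009640) was a member, and 3 of the 9 reached the control floor. The chloride channel gene CLC-B (Csa06g007100), which encodes an anion transporter of the vacuolar membrane in A. thaliana, kept 14% in roots but 28.6% in shoots. The other CLC-B genes, Csa04g014930 and Csa09g012970, kept 14.9% and 8.91% in roots but 74.1% and 115% in shoots, where neither was called. Glutamine synthetase R1 (Csa11g051370), which assimilates ammonium in the cytosol, kept 24.2% and 30.7%. ACC oxidase 1 (Csa00441s160), which carries out the last step of ethylene synthesis, kept 15.6% and 32.7%, and its control shoot libraries were under 20 CPM.

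The auxin response list holds Aux/IAA repressors and the auxin response factor ARF11 (Csa05g002640). Of its 5 genes measured, 5 were called lower in roots and 2 in shoots, where 7.85% and 8.87% of all genes tested were, and none was a member. The genes of this list and of the brassinosteroid list were named by the study from the same libraries, so their counts are not independent evidence of a direction. ARF11 kept 31.4% in roots and 34.5% in shoots, at 15 to 20 CPM in control roots and 9 to 10 CPM in control shoots. Of 4 genes of brassinosteroid synthesis and signalling, 2 were called lower in roots and all 4 in shoots, beside the same shares of all genes tested (7.85% and 8.87%). The BRS1 genes (Csa10g011910 and Csa12g016550), which encode a carboxypeptidase of brassinosteroid signalling, were listed at 0 in every salt root library from 2 to 4 CPM in control roots, too low for the floor. No measured gene of these lists other than ERF106 (Csa13g009640) was both expressed at 20 CPM in all controls and lowered to 25% in both organs.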

How the data were processed

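RNA-seq of roots and shoots of DH55 was compared in 12 libraries, each assigned to 1 of 4 groups from the labels. The authors used Trimmomatic for trimming and STAR for alignment to the genome of C. sativa with its NCBI transcripts, then scaled the reads counted per gene to CPM and normalized the result with DESeq, and the authors' processing notes also name edgeR. Tool versions: not given in the sources used here. Values in the deposited table are a score, CPM rounded to whole numbers, summing to 882288 to 1117956 per library. The depth is not given, so no counting intervals are attached, and the precision rests on 3 replicates.

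Since the values are not counts, limma 3.58.1 (R 4.3.3, trend, 1 model of 4 groups) was fitted to log2(CPM + 0.5) of the 49928 genes at 1 or more in at least 3 libraries, with Benjamini-Hochberg adjustment over all of them, and was tested on simulated data. The fold changes understate the change of low genes. The thresholds of the study were kept.

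The members and gene lists were chosen with earlier results of these data known. Genes to name were ERF106, the genes of the lists, and at most 2 unnamed genes of largest fall or highest level; the other unnamed IDs were added after their values were seen. Of the listed IDs, 0 matched the RefSeq gene table. The iron-regulated transporter genes meant as a root marker were not analysed here, nor were 3 of 8 auxin response and 2 of 6 brassinosteroid IDs, and 1 further gene list is not reported here. Rubisco small chain genes differed between the organs as the labels say.

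Gene order was read from the IDs (10 units per gene step). Expected positions were interpolated between anchors, annotated genes sharing an A. thaliana orthologue with at most 4 genes each, no more than 600 steps apart. Sub-genomes were assigned to chromosomes from general knowledge of the species, and 452 of 453 anchor pairs (99.8%) lay on different sub-genomes. Alternatives covered the pseudocount, filter, scaling, variance model, replicate block, limits of the rule and each library left out.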

Additional observations from a re-analysis of the deposited data

How the results depend on the processing

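The number of genes meeting the rule depends on its limits: 148 with a control floor of 10 CPM, 22 with a floor of 40 CPM, 145 with a limit of a 3-fold fall and 10 with a limit of an 8-fold fall, against 59. Leaving out each library in turn gave 47 to 68 genes. The median log2 change of the members in shoots was -2.80 with a pseudocount of 0.1 and -2.59 with a pseudocount of 1, against -2.70. With each library left out in turn it was -2.78 to -2.66 in shoots and -2.84 to -2.51 in roots, and the median difference of the salt effect was -0.22 to -0.0061. With each library left out in turn, the calls of the organ comparison were 13 to 14 genes higher in roots and 6 higher in shoots in control plants, and 15 to 23 and 10 to 12 with salt. With quantile normalization they were 16 and 6 without salt and 19 and 10 with salt, and with a pseudocount of 0.1 they were 13 and 5, and 19 and 11. For the 22 members followed one by one, 0 directions turned, 4 calls were lost and 13 gained over 924 gene and setting combinations. A direction was counted as turned only where the main fit had called the difference.

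The replicate numbers were not taken to pair the samples, since not every same-numbered pair had an r over 0.1 between its deviations from the group means. For control root and shoot libraries r was 0.02, 0.04 and 0.11 for the same number and -0.10 to 0.08 for different numbers, and for salt-treated ones 0.20, 0.36 and 0.06 against -0.32 to 0.10. Not every library correlated best with its own number, and whether root and shoot shared plants is not known. With the replicate number as a block the counts were 13 and 6 without salt and 17 and 11 with salt, the same as without it. Rounding to whole CPM limits the precision of the salt-treated means, many of which are a few CPM, and the depth of the libraries is unknown.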
